A study of Mus musculus with 8 samples.

Results

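The cell cycle and DNA replication genes described here are 43 mouse genes chosen by symbol for what they do in dividing cells, out of 56748 genes in the count table. They hold 39 genes of the general (mitotic) machinery and 4 genes known for their use in germ cells (Ccna1, Ccnb3, Aurkc and Wee2). All 43 symbols matched a row of the table. The rule that chose them names genes and uses no measured value, but it was set with earlier results of these data known. Their RNA levels come from whole adult testes of mice, sequenced in bulk, with 4 libraries of the genotype Ssty2-/- (knockout) and 4 of the genotype WT (wild type). Ssty2 is a Y-linked gene present in many copies, and the series concerns deletion of these copies and the sex ratio of the mice. No source at hand gives the strain, the exact age, the way in which the deletion was made or whether each library came from a separate animal, so the p-values rest on how far these libraries varied, and that variation may be technical only.

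In the adult testis, cells divide by mitosis as spermatogonia, copy their DNA once more before meiosis, and then pass through the meiotic divisions as spermatocytes to give haploid spermatids, which no longer divide. Cyclins are regulatory subunits that switch on cyclin-dependent kinases (CDKs): D- and E-type cyclins with Cdk4, Cdk6 and Cdk2 drive entry into S phase, and A- and B-type cyclins with Cdk1 drive entry into M phase. Many of these genes serve both mitotic and meiotic divisions, and several, such as Ccna1, have forms used mainly in the germline. Bulk RNA of a whole testis mixes all of these cells, and in such samples fewer cells of a type and less RNA per cell cannot be told apart.

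Library totals ran from 18036708 to 24415587 counts, and a gene without counts could therefore lie at up to 0.117 to 0.174 CPM (3 counts, covering counting error only). CPM are counts scaled to a common depth with TMM factors (trimmed means of M-values). Ssty2 itself had 56, 78, 83 and 45 counts in the wild-type libraries and no count in any knockout library, as the genotype labels say. These are the counts of the row with the symbol Ssty2, and they do not show the state of copies that have other names. The marker lists of the testis cell types were detected, with no gene of the 82 at 0 in all libraries. All 8 round spermatid and all 8 elongating spermatid markers were higher in knockout (median log2 fold changes of 0.57 and 0.62), 9 of 12 spermatogonial markers were lower and 2 higher (median -0.69), 11 of 12 Sertoli cell markers were lower (median -0.62), and all 7 Leydig cell markers were lower (log2 fold changes of -1.56 to -0.64). Of 10 spermatocyte markers 5 were lower and 2 higher (median -0.24). Lower markers also numbered 5 of 6 for peritubular myoid cells, 2 of 7 for macrophages and lymphocytes, 2 of 5 for endothelial cells, none of 3 for erythroid cells and 1 of the 2 tested for the epididymis, with none higher in these lists. Over all tested genes 27.4% were called lower and 26.2% higher. The share of lower macrophage and lymphocyte markers (28.6%) lay near that background. The part that these shifts in the marker genes have in the results below was not tested.

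The cell cycle genes fell more often than they rose in knockout. Of the 42 members that passed the filter on low counts, 19 were lower and 5 were higher in knockout, and 18 were not called (quasi-likelihood test of edgeR, with p adjusted by Benjamini-Hochberg over all 21952 genes tested and a threshold of 0.05). Over all tested genes 27.4% were lower and 26.2% higher, against 45.2% and 11.9% of these members. The share called in either direction was 57.1% among the members and 53.5% over all genes, so the total number of calls lay near the background, and most of the calls were lower. The members had a median log2 fold change (knockout over wild type) of -0.22, against -0.01 over all tested genes. When library totals replaced the TMM factors, 28 members were called lower and 2 higher, which makes 6.67% of the member calls higher, compared with 20.8% under TMM. The 9 further members called lower with that scaling were Pcna, Rrm2, Tyms, E2f1, Ccna2, Wee1, Aurkb, Cdc20 and Ndc80. That scaling moved the median of all tested genes to -0.15, and relative to this median the members lay at -0.21 under both scalings. A change of scaling shifts all genes by nearly the same amount, so this agreement was fixed in advance and is no separate support. The CPM ranges of the 2 groups did not overlap for 19 of the 42 members, or 45.2%, against 46.7% of all tested genes. Wee2 is the member that did not pass the filter.

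**Figure D1:**
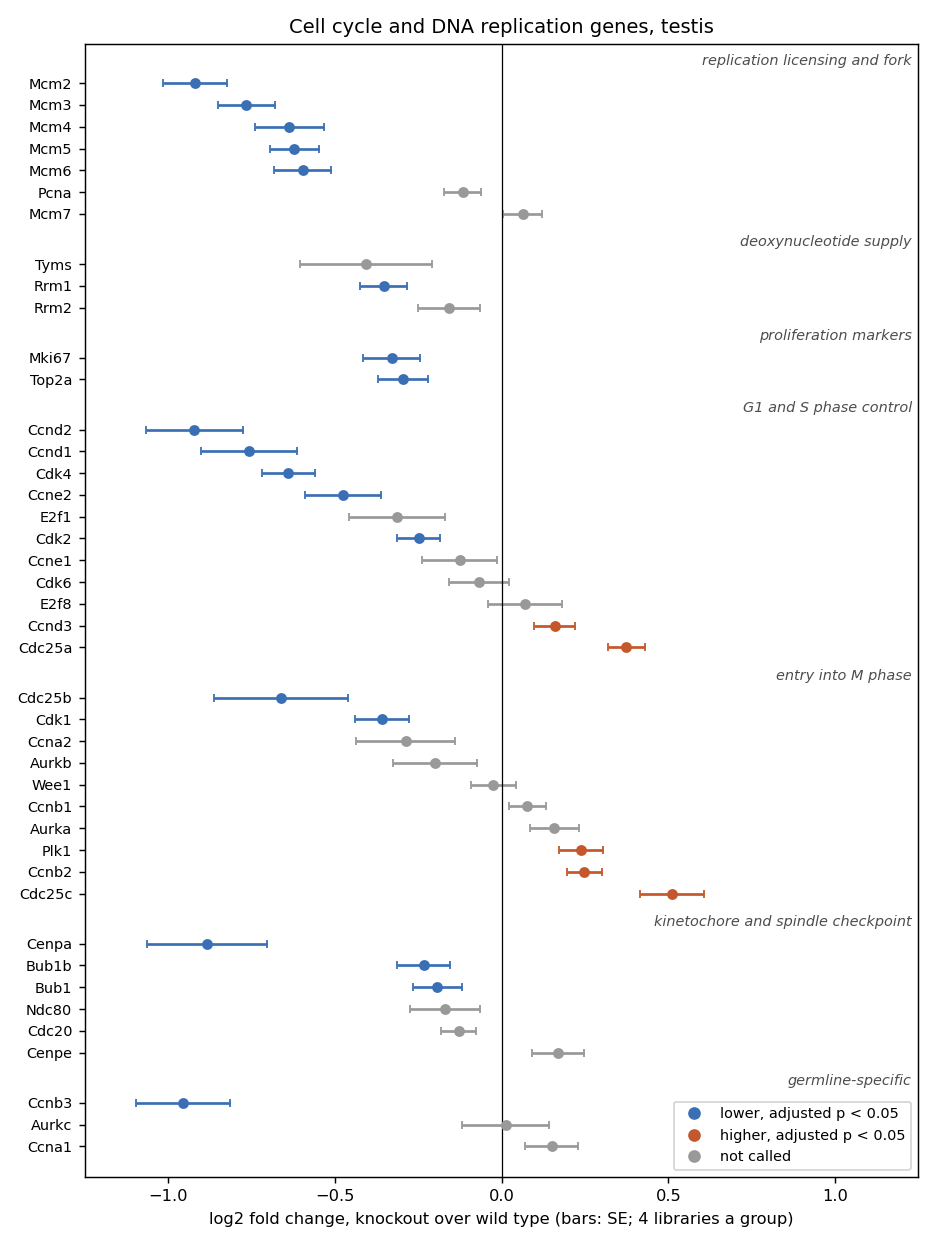
Log2 fold change of knockout over wild type (x axis) for the 42 tested genes (y axis), grouped by role; points are edgeR estimates, bars are standard errors with 4 libraries a group, and colour marks genes called lower, higher or not called. Mcm2 to Mcm6, Ccnd1, Ccnd2, Cdk4, Cdc25b, Cenpa and Ccnb3 lie farthest to the left, and Cdc25c and Cdc25a farthest to the right.

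**Figure D2:**
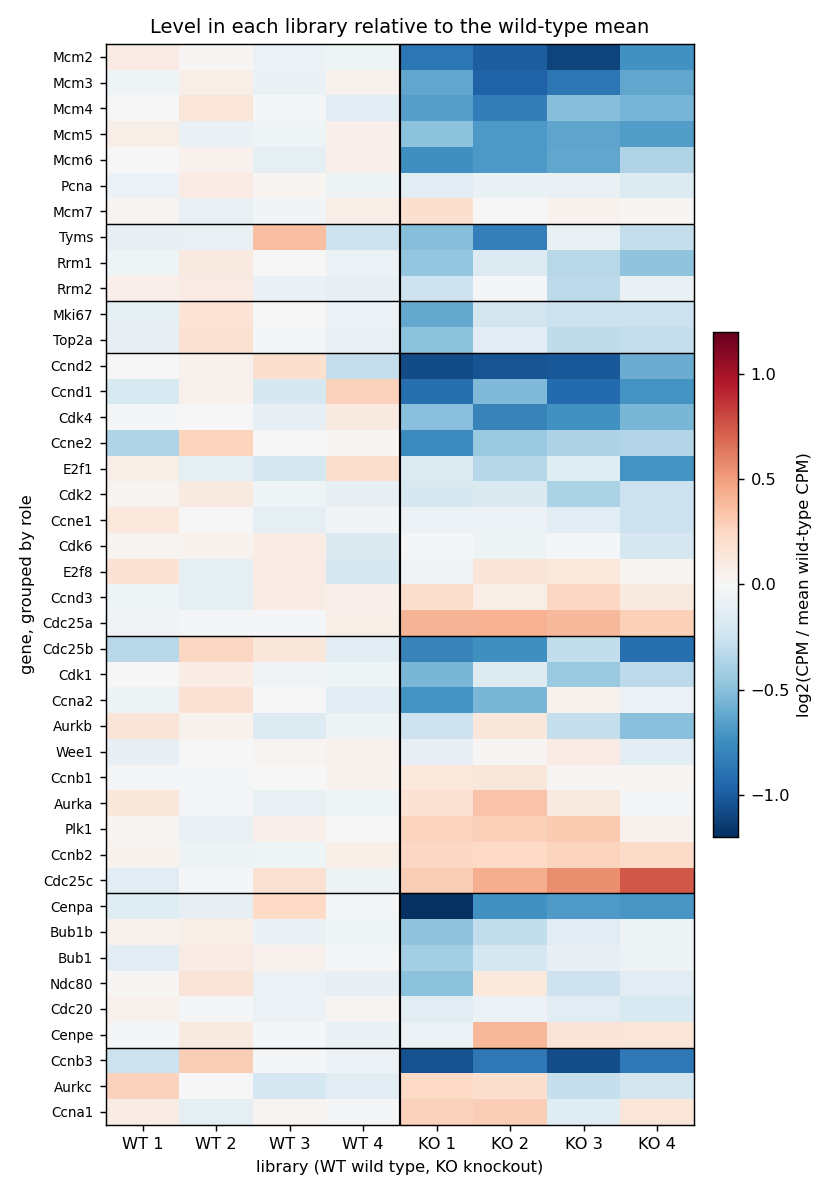
Level of the 42 tested genes (rows, grouped by role) in each of the 8 libraries (columns) as log2 of the CPM over the mean wild-type CPM; blue is below and red above the wild-type mean. The 5 genes Mcm2 to Mcm6 are below the wild-type mean in all 4 knockout libraries, whereas Mcm7 stays near it, and Cdc25a, Ccnb2 and Cdc25c are above it in all 4.

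Genes of the replicative helicase, the ring of 6 MCM proteins that is loaded on origins before S phase and unwinds DNA at the fork, fell together with 1 exception. Of the 7 genes for licensing and the fork (Mcm2 to Mcm7 and Pcna), 5 fell and none rose, with a median log2 fold change of -0.62. The 2 members of the group that were not called were Mcm7 and Pcna, the latter encoding the sliding clamp of the replicative polymerases.

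Mcm2 (ENSMUSG00000002870, chromosome 6) had 21.1, 19.9, 18.8 and 19.0 CPM in the wild-type libraries and 10.8, 9.91, 9.13 and 11.9 CPM in the knockout libraries. Every knockout library lay below every wild-type library, and the gene fell by 0.92 on the log2 scale (SE 0.0959, n = 4 per group, edgeR adjusted p = 1.08e-06), to 52.8% of the wild-type level. Mcm3 (ENSMUSG00000041859, chromosome 1) had 34.4, 37.3, 33.7 and 37.0 CPM in wild type, and its knockout libraries had 23.1, 18.2, 19.5 and 23.1 CPM. Its groups did not overlap either, and the fall was to 58.8% of wild type (log2 fold change -0.77, SE 0.0853, edgeR adjusted p = 2.16e-06). Mcm5 (ENSMUSG00000005410, chromosome 8) had 35.8, 32.3, 32.9 and 35.5 CPM in wild type and 24.2, 21.2, 22.0 and 21.4 CPM in knockout, which is a fall to 65.0% (log2 fold change -0.62, SE 0.0737, edgeR adjusted p = 4.13e-06). Mcm4 (log2 fold change -0.64) and Mcm6 (-0.60) fell to 64.3% and 66.1% of wild type, again with no overlap between the groups. The fall of these 5 subunits thus spanned 52.8% to 66.1% of the wild-type level, and all 5 were called in each of the 14 alternative fits.

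The exception was Mcm7, which encodes another subunit of the same ring. Its levels were 178, 163, 170 and 184 CPM in wild type and 199, 173, 179 and 176 CPM in knockout, and the ranges overlapped (log2 fold change 0.06, SE 0.0591, edgeR adjusted p = 0.385). With library totals its log2 fold change was -0.08 (edgeR adjusted p = 0.256). Per kilobase of annotated exon, Mcm7 stood at 39.3 CPM per kb in wild type, while Mcm2, Mcm3, Mcm4, Mcm5 and Mcm6 stood between 2.83 and 9.49 CPM per kb. To compare libraries, the CPM of Mcm7 was divided by the mean CPM of Mcm2 to Mcm6. This ratio, whose size also depends on gene length, was 5.90 to 6.70 in the wild-type libraries and 9.65 to 11.5 in the knockout libraries; it was chosen after the values were seen and is given without a test. Part of the Mcm7 signal may be shared: 12.6% of its exon length is overlapped, by Ap4m1 on the opposite strand and by 2 microRNA genes, and 33.4% of its 31-base words also occur in other genes, most often in the gene model Gm5487. How the counting treated strand and reads with several matches is not given. Ap4m1 was at 30.7 CPM in wild type and 35.7 CPM in knockout (log2 fold change 0.22, edgeR adjusted p = 0.0163), and Gm5487 at 5.69 and 6.02 CPM.

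**Figure D3:**
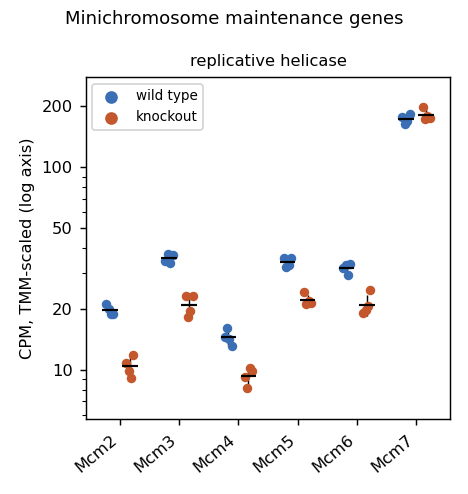
CPM (TMM-scaled, log axis) of the 6 helicase genes in each library; points are libraries, horizontal lines are means and vertical lines are SD over 4 libraries, in blue for wild type and orange for knockout. The knockout points lie below the wild-type points for Mcm2 to Mcm6 and mix with them for Mcm7.

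Pcna had 93.0, 105, 99.6 and 94.0 CPM in wild type and 88.9, 92.8, 91.9 and 87.1 CPM in knockout. The knockout values all lay below the lowest wild-type value, but the difference was small and did not pass the test (log2 fold change -0.12, SE 0.0568, edgeR adjusted p = 0.0921). It passed without wild-type replicate 1 (edgeR adjusted p = 0.0487). Of its 31-base words 23.3% occur in other genes, most often in the pseudogene Pcna-ps2, which was at 0.574 CPM in wild type and 0.992 CPM in knockout.

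The windows upstream of 2 helicase genes that fell together are shown because they carry letters known from E2F-regulated S-phase genes. The sequences are the 250 bases before the gene's start in RefSeq, build GRCm38.p6 (the submitters name mm39 for the counts), and none of those printed here overlaps an exon annotated in GENCODE vM21. They are written 5′ to 3′ on the gene's strand, with capitals for matches to CCAAT (the CCAAT box bound by NF-Y), to TTTGAA (the cell cycle homology region, CHR) and to TTCCCGC or TTGGCGC (forms of the E2F site), all on either strand; an E2F form and a CCAAT box can share letters.
Mcm5, chr8:75109259-75109508, plus strand: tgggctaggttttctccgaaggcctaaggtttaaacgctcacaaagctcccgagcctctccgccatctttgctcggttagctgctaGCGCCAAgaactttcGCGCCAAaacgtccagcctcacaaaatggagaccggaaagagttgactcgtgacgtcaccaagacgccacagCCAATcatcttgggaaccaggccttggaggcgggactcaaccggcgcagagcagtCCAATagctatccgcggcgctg
Mcm6, chr1:128359706-128359955, minus strand: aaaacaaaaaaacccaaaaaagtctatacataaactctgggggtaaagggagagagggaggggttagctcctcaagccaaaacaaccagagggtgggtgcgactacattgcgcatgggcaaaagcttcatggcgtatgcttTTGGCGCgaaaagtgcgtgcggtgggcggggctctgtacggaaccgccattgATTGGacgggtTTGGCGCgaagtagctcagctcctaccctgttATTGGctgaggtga
Both windows hold 2 E2F forms and 2 CCAAT boxes. Of the other helicase genes, Mcm2 and Mcm3, which also fell, had no E2F form in their windows. Mcm7, which was not called, had 1 in each of its 2 windows. Mcm4, which fell as well, had no window to search. Only the exact letters given above were searched in 250 bases, so control by E2F was not tested. A promoter was found for 35 of the 43 members. A gene with more than 1 window counted as holding a motif if any window did. Of the 35, 27 (77.1%) held a CCAAT box, 10 (28.6%) an E2F form and 7 a CHR, against 37.5%, 6.45% and 18.3% of 27025 genes with a window of the same length. Among the members that fell, 13 of 15 held a CCAAT box, 6 an E2F form and 4 a CHR. Among those that rose it was 4, 1 and 1 of 4, and among those not called 9, 3 and 2 of 15, with Wee2 outside these counts because it was not tested. These are matches of letters and not sites shown to be bound.

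Of the 3 genes that supply deoxynucleotides, 1 fell. Rrm1, which encodes the large subunit of ribonucleotide reductase, had 122, 136, 127 and 120 CPM in wild type and 91.6, 113, 100 and 90.4 CPM in knockout. It fell to 78.2% of wild type with no overlap between the groups (log2 fold change -0.35, SE 0.0707, edgeR adjusted p = 0.000539). Rrm2, which encodes the small subunit, ran from 15.6 to 17.8 CPM in wild type and from 13.4 to 16.4 CPM in knockout and did not pass (log2 fold change -0.16, edgeR adjusted p = 0.16). Tyms, the gene of thymidylate synthase, was low, at 2.97 ± 0.578 and 2.26 ± 0.473 CPM (mean ± SD, n = 4 each; log2 fold change -0.41, edgeR adjusted p = 0.0927), and passed without knockout replicate 3 (edgeR adjusted p = 0.0478). Without that replicate 2 of the 3 genes were thus lower, and with library totals all 3 were.

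Both general proliferation markers fell. Top2a, which encodes the topoisomerase that untangles sister chromatids, had 238, 288, 251 and 239 CPM in wild type and 180, 233, 206 and 208 CPM in knockout. It was lower in all 4 knockout libraries than in any wild-type library (log2 fold change -0.30, SE 0.0754, edgeR adjusted p = 0.00348), at 81.4% of wild type. Mki67, the gene of the Ki-67 antigen found in cycling cells, had 58.7, 71.0, 62.9 and 60.4 CPM in wild type and 41.3, 54.2, 52.8 and 53.0 CPM in knockout. It also fell without overlap, to 79.6% of wild type (log2 fold change -0.33, SE 0.0856, edgeR adjusted p = 0.00399), and knockout replicate 1 lay apart below the other 3 knockout libraries. The window upstream of Top2a is shown because it held more CCAAT boxes than that of any other member.
Top2a, chr11:99024190-99024439, minus strand: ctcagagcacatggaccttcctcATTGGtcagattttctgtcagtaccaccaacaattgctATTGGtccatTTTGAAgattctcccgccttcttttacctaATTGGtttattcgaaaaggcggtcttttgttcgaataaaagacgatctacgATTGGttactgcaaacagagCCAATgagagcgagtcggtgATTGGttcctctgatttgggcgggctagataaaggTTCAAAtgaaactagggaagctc
It holds 6 CCAAT boxes and 2 CHR matches and no E2F form.

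Among 11 genes that control G1 and S phase, 5 fell, 2 rose and 4 were not called, with a median log2 fold change of -0.25 (6 lower and 1 higher with library totals). The cyclins that respond to growth signals split by gene. Ccnd2 (ENSMUSG00000000184, chromosome 6) had 8.34, 8.66, 9.54 and 6.83 CPM in wild type and 3.97, 4.08, 4.12 and 5.53 CPM in knockout, and Ccnd1 had 7.05, 8.31, 7.01 and 9.71 CPM in wild type and 4.29, 5.54, 4.21 and 4.89 CPM in knockout. For both genes the highest knockout library lay below the lowest wild-type library. Ccnd2 fell to 52.8% of wild type (log2 fold change -0.92, SE 0.145, edgeR adjusted p = 6.36e-05) and Ccnd1 to 59.1% (log2 fold change -0.76, SE 0.144, edgeR adjusted p = 0.000342). Ccnd1 shares 23.4% of its exon length with the gene LTO1 on the opposite strand, whose log2 fold change was -0.09 (edgeR adjusted p = 0.361).

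Ccnd3 was the most abundant D-type cyclin gene, at 11.6 CPM per kb in wild type against 1.70 for Ccnd1 and 0.887 for Ccnd2. It had 97.6, 93.7, 108 and 106 CPM in wild type and 117, 107, 120 and 109 CPM in knockout, with overlapping ranges and a rise to 112% (log2 fold change 0.16, SE 0.0626, edgeR adjusted p = 0.0418). This call was lost in 7 of the 14 alternative fits, among them those without knockout replicate 1 or 3 (edgeR adjusted p = 0.0825 and 0.12) and without wild-type replicate 1 or 2 (0.116 and 0.153), and with library totals the log2 fold change was 0.02 (edgeR adjusted p = 0.835). The ratio of the CPM of Ccnd3 to the summed CPM of Ccnd1 and Ccnd2, also chosen after the values were seen, was 5.52 to 6.55 in the wild-type libraries and 10.5 to 14.4 in the knockout libraries.

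The kinase partners of these cyclins also differed from each other. Cdk4 had 38.3, 38.7, 36.3 and 41.7 CPM in wild type and 27.4, 22.2, 23.4 and 26.5 CPM in knockout, and fell to 64.2% with no overlap (log2 fold change -0.64, SE 0.0804, edgeR adjusted p = 7.27e-06). Cdk6 ran from 14.2 to 17.1 CPM in wild type and from 14.0 to 15.9 CPM in knockout and was not called (log2 fold change -0.07, SE 0.0889, edgeR adjusted p = 0.537). Of the exon length of Cdk4, 19.7% is overlapped by Tspan31 on the opposite strand, which had a log2 fold change of -0.66 (edgeR adjusted p = 0.000429), and reads of the 2 genes could be told apart there only if the counting used strand, which is not stated. Cdk2, the partner of the E-type cyclins and of Ccna2, had 86.2, 90.4, 81.0 and 78.6 CPM in wild type and 73.5, 74.5, 64.6 and 70.4 CPM in knockout. Cdk2 fell without overlap to 84.2% of wild type (log2 fold change -0.25, SE 0.0646, edgeR adjusted p = 0.00404).

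The E-type cyclin genes gave one call. Ccne2 had 31.6, 48.9, 40.7 and 41.4 CPM in wild type and 23.9, 29.9, 31.5 and 31.9 CPM in knockout and fell to 72.0% (log2 fold change -0.47, SE 0.114, edgeR adjusted p = 0.00231), with wild-type replicate 1 inside the knockout range. Its opposite-strand neighbour Ints8 overlaps 17.4% of its exon length and had a log2 fold change of -0.54 (edgeR adjusted p = 1.77e-05). Ccne1 ran from 7.13 to 8.39 CPM in wild type and from 6.4 to 7.32 CPM in knockout and was not called (log2 fold change -0.13, edgeR adjusted p = 0.363). The transcription factor genes E2f1, an activator of S-phase genes, and E2f8, a repressor of them, were not called either (log2 fold changes of -0.31 and 0.07, edgeR adjusted p = 0.0791 and 0.611).

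Cdc25a went against the majority of its class. The gene encodes a phosphatase that removes inhibitory phosphates from CDKs, and it had 74.8, 76.2, 75.9 and 81.0 CPM in wild type and 102, 103, 101 and 93.6 CPM in knockout. All 4 knockout libraries lay above all wild-type libraries, and the gene rose to 130% (log2 fold change 0.37, SE 0.0557, edgeR adjusted p = 3.9e-05), a call kept in each of the 14 alternative fits.

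The 10 genes of entry into M phase went both ways. In knockout, 3 rose (Cdc25c, Ccnb2 and Plk1), 2 fell (Cdk1 and Cdc25b) and 5 were not called, with a median log2 fold change of 0.03. With library totals 1 was higher (Cdc25c) and 5 were lower. Cdc25c (ENSMUSG00000044201, chromosome 18), which encodes the phosphatase that activates Cdk1, had 20.4, 21.9, 25.2 and 21.3 CPM in wild type and 27.2, 30.0, 32.7 and 37.2 CPM in knockout. It rose to 143% with no overlap (log2 fold change 0.51, SE 0.0963, edgeR adjusted p = 0.000323). Cdc25b, the family member of lowest level, had 2.16, 3.24, 3.00 and 2.50 CPM in wild type and 1.56, 1.64, 2.22 and 1.46 CPM in knockout. It fell to 63.2% with a small overlap of the ranges (log2 fold change -0.66, SE 0.201, edgeR adjusted p = 0.0109), so that in the CDC25 family 2 genes rose and 1 fell.

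The B-type cyclin gene Ccnb2 had the highest level of all members per length, at 73.6 CPM per kb in wild type. It had 116, 108, 109 and 118 CPM in wild type and 134, 133, 136 and 132 CPM in knockout. The groups did not overlap and the rise was to 119% (log2 fold change 0.25, SE 0.0518, edgeR adjusted p = 0.000775). Ccnb1 was nearly flat, at 80.0, 79.5, 80.5 and 82.9 CPM in wild type and 88.3, 88.9, 81.3 and 81.8 CPM in knockout (log2 fold change 0.08, SE 0.0555, edgeR adjusted p = 0.263). Their kinase gene Cdk1 moved the other way, from 48.5, 51.7, 47.2 and 46.7 CPM in wild type to 33.1, 43.7, 35.6 and 39.0 CPM in knockout. It fell to 78.0% with no overlap (log2 fold change -0.36, SE 0.0808, edgeR adjusted p = 0.00141). Ccnb1 shares 27.8% of its 31-base words with other genes, whereas Ccnb2 shares none. The rises of Ccnb2 and Plk1 did not pass with library totals (log2 fold changes of 0.11 and 0.10, edgeR adjusted p = 0.0817 and 0.232).

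**Figure D4:**
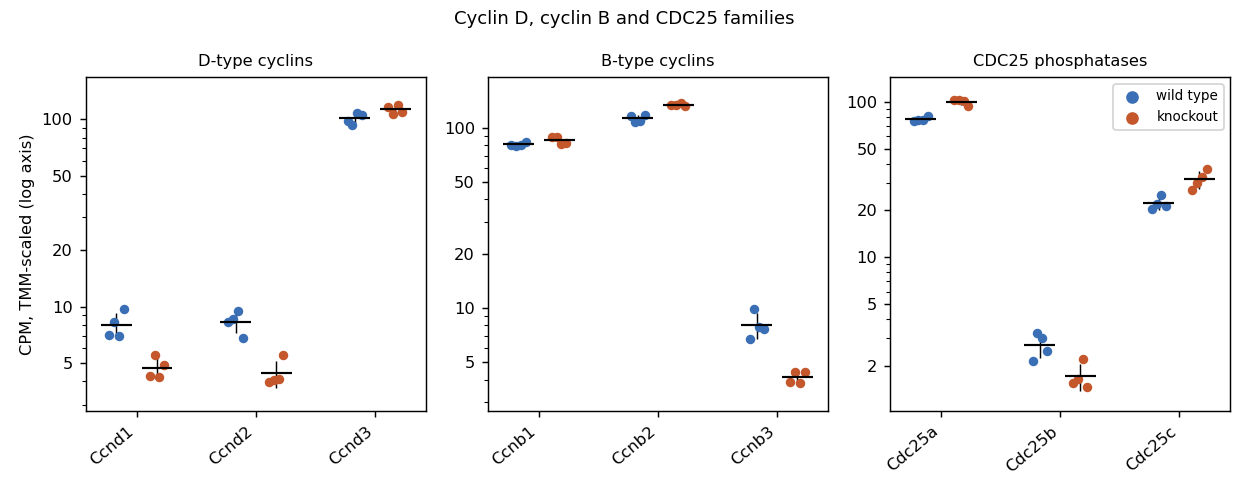
CPM (TMM-scaled, log axis) of the D-type cyclin, B-type cyclin and CDC25 phosphatase genes in each library; points are libraries, horizontal lines are means and vertical lines are SD over 4 libraries, in blue for wild type and orange for knockout. Within each family a gene of low level (Ccnd1 and Ccnd2, Ccnb3, Cdc25b) is lower in knockout, while the gene of highest level (Ccnd3, Ccnb2, Cdc25a) is higher. Of the genes of middle level, Cdc25c is higher and Ccnb1 was not called. The rises of Ccnd3 and Ccnb2 did not pass with library totals, and the Ccnd3 call was lost in 7 of the 14 alternative fits.

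Plk1, the gene of a kinase that acts on spindle poles and kinetochores, had 61.9, 57.6, 63.8 and 61.0 CPM in wild type and 73.7, 74.6, 76.1 and 63.5 CPM in knockout. It rose to 118%, with knockout replicate 4 just inside the wild-type range (log2 fold change 0.24, SE 0.0665, edgeR adjusted p = 0.00656). Aurka, a kinase gene of the spindle poles, ran from 113 to 132 CPM in wild type and from 119 to 152 CPM in knockout and was not called (log2 fold change 0.16, edgeR adjusted p = 0.0769); it passed without knockout replicate 4 (edgeR adjusted p = 0.0243) and without wild-type replicate 1 (0.0368). Aurkb, whose kinase acts at centromeres, ran from 10.4 to 12.9 CPM in wild type and from 8.15 to 12.7 CPM in knockout (log2 fold change -0.20, edgeR adjusted p = 0.194), and it passed as lower without knockout replicate 2 (edgeR adjusted p = 0.0256). Wee1, which encodes the kinase that holds Cdk1 inactive, had a log2 fold change of -0.03 (SE 0.0671, edgeR adjusted p = 0.774). Ccna2, the A-type cyclin gene of mitotic cells, had 9.93, 11.7, 10.3 and 9.47 CPM in wild type and 6.28, 7.09, 10.7 and 9.84 CPM in knockout. Its knockout libraries parted into replicates 1 and 2, below the wild type, and replicates 3 and 4, within it (log2 fold change -0.29, edgeR adjusted p = 0.114). Its opposite-strand neighbour Exosc9 overlaps 12.5% of its exon length and had a log2 fold change of -0.08 (edgeR adjusted p = 0.568). Without knockout replicate 3 Ccna2 passed as lower (edgeR adjusted p = 0.026).

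The windows upstream of Ccnb2 and Cdc25a are shown as those of M-phase and G1 genes that rose, with capitals as above.
Ccnb2, chr9:70421555-70421804, minus strand: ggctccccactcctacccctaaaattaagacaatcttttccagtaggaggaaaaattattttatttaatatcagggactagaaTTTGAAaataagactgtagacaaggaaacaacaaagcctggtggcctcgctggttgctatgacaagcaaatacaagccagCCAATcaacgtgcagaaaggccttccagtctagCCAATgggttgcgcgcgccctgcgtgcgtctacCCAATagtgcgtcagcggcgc
Cdc25a, chr9:109875329-109875578, plus strand: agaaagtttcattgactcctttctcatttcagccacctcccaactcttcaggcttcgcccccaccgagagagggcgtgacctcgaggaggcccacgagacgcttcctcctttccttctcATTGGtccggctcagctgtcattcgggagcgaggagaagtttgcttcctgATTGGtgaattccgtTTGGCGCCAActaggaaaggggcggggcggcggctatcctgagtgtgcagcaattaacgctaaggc
The Ccnb2 window holds 3 CCAAT boxes and 1 CHR match and no E2F form. The Cdc25a window holds 2 CCAAT boxes and a palindrome that matches an E2F form on both strands. CCAAT boxes thus stood upstream of genes that fell and of genes that rose.

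Of 6 genes of the kinetochore, the structure by which chromosomes attach to the spindle, and of the checkpoint that monitors it, 3 fell and none rose, and with library totals 5 were lower. Cenpa, which encodes the histone H3 variant that marks centromeres, had 6.23, 6.43, 8.14 and 6.78 CPM in wild type and 2.20, 4.18, 4.31 and 4.25 CPM in knockout. It fell to 54.2% with no overlap (log2 fold change -0.88, SE 0.18, edgeR adjusted p = 0.000633). The checkpoint kinase gene Bub1 had 106, 124, 120 and 114 CPM in wild type and 87.3, 100, 108 and 111 CPM in knockout (log2 fold change -0.19, SE 0.0737, edgeR adjusted p = 0.0366), and its partner Bub1b had a log2 fold change of -0.23 (SE 0.0798, edgeR adjusted p = 0.021). Both differences were small and the groups overlapped. The Bub1 call was lost without knockout replicate 1 or 2 (edgeR adjusted p = 0.128 and 0.0734) and without wild-type replicate 2, 3 or 4 (0.0935, 0.0789 and 0.0538). For Bub1b the call was lost without knockout replicate 1 or 2 (0.0702 and 0.0552) and without wild-type replicate 2 (0.0508). Only Cenpa was thus left of the 3 without knockout replicate 1, without knockout replicate 2 or without wild-type replicate 2.

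The other 3 genes of this class were not called. Cdc20, the activator of the anaphase-promoting complex, stood at 121 ± 4.79 CPM in wild type and 110 ± 3.77 CPM in knockout (log2 fold change -0.13, edgeR adjusted p = 0.0514), and it passed as lower in 5 of the 14 alternative fits, among them those with library totals (0.000312), without knockout replicate 2 (0.0385) and without wild-type replicate 3 (0.0432). Cenpe, the gene of a kinetochore motor, ran from 107 to 122 CPM in wild type and from 108 to 149 CPM in knockout (log2 fold change 0.17, edgeR adjusted p = 0.0828) and passed as higher without knockout replicate 1 (0.0086). Ndc80, the microtubule-binding subunit gene of the outer kinetochore, stood at 35.9 ± 2.91 and 31.9 ± 5.69 CPM (log2 fold change -0.17, edgeR adjusted p = 0.185) and passed as lower without knockout replicate 2 (edgeR adjusted p = 0.019).

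The 4 germline genes did not move as a block. Ccna1, the A-type cyclin of male meiosis, was the member with the second highest level per length, at 67.6 CPM per kb in wild type against 2.53 for Ccna2. It had 132, 115, 127 and 122 CPM in wild type and 150, 152, 112 and 137 CPM in knockout, and was not called (log2 fold change 0.15, SE 0.0805, edgeR adjusted p = 0.129). Knockout replicate 3 was its lowest library of all 8, and without it the gene passed as higher (log2 fold change 0.24, edgeR adjusted p = 0.0059). Aurkc, the Aurora kinase of meiotic cells, had 19.9, 16.5, 14.2 and 15 CPM in wild type and 19.4, 18.9, 13.5 and 14.1 CPM in knockout (log2 fold change 0.01, SE 0.13, edgeR adjusted p = 0.943). Its counts are uncertain, since 67.1% of its 31-base words occur in other genes, most often in Gm12463. That gene model stood at 1.92 CPM in wild type and 1.85 CPM in knockout.

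Ccnb3 (ENSMUSG00000051592, chromosome X), a cyclin gene of early meiotic prophase, was the germline gene that changed. It had 6.69, 9.84, 7.87 and 7.65 CPM in wild type and 3.87, 4.41, 3.83 and 4.42 CPM in knockout. Every knockout library was lower than every wild-type library, and the level fell to 51.5% (log2 fold change -0.96, SE 0.141, edgeR adjusted p = 3.41e-05), the lowest log2 fold change of the 42 tested members. Wee2, known as an oocyte kinase that inhibits Cdk1, had 2, 4, 2 and 4 counts in wild type and 6, 1, 3 and 6 counts in knockout. At this depth no difference was detectable for Wee2. The window upstream of Ccnb3 is shown as an example without a match.
Ccnb3, chrX:7041620-7041869, minus strand: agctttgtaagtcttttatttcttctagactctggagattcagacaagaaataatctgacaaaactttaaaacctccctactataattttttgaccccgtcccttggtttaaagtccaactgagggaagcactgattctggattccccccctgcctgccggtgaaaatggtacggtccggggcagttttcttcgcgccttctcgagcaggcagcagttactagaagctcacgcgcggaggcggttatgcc
It holds no match to any of the motifs searched, which says only that these letters are not in this window. The windows of other members, among them Cdk4 and Aurkc, held no match either. Those of the germline genes Ccna1 and Wee2 held a CCAAT box.

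The germline genes were then set against their mitotic paralogs within each library, as the log2 ratio of counts, which needs no scaling between libraries. Ccnb3 over Ccnb1 gave -3.57, -3.01, -3.35 and -3.44 in wild type and -4.50, -4.33, -4.40 and -4.20 in knockout. The 2 groups did not overlap, and the mean ratio was 1.01 log2 units lower in knockout (difference -1.01; two-sided exact permutation p = 0.0286, the smallest that 4 against 4 allows; adjusted over the 4 pairs p = 0.114). Ccna1 over Ccna2 gave 3.73, 3.30, 3.63 and 3.68 in wild type and 4.57, 4.42, 3.39 and 3.79 in knockout. The groups overlapped and the means differed by 0.46 (exact permutation p = 0.2, adjusted p = 0.267). Aurkc over Aurkb differed by 0.22 (exact permutation p = 0.114, adjusted p = 0.229) and Wee2 over Wee1 by 0.41 (exact permutation p = 0.543, adjusted p = 0.543). None of the 4 ratios passed after adjustment. A single pair at the smallest exact permutation p, as Ccnb3 over Ccnb1 was, gets an adjusted p of 0.114 and cannot pass. The adjusted result therefore does not decide whether that ratio differed. Over the 39 mitotic members 18 fell (46.2%) and 5 rose (12.8%), with a median log2 fold change of -0.23. Of the 3 tested germline genes 1 fell (33.3%) and none rose. Over all tested genes 27.4% fell and 26.2% rose. The germline share lies near this background and rests on too few genes for a comparison with the mitotic members.

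**Figure D5:**
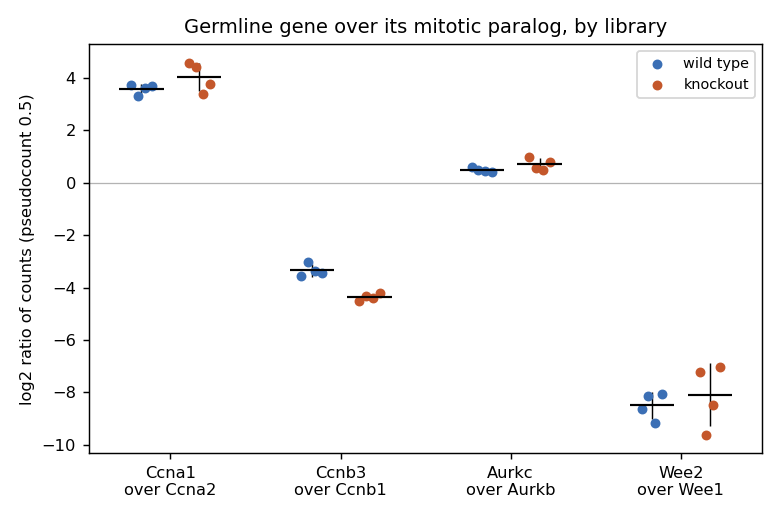
Log2 ratio of the counts of each germline gene to its mitotic paralog (y axis, pseudocount 0.5) in each library; points are libraries, horizontal lines are means and vertical lines are SD over 4 libraries, in blue for wild type and orange for knockout. The groups are apart for Ccnb3 over Ccnb1 and overlap for the other pairs.

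The other genes of the same pathway were read from 4 lists of 147 genes in all. Of 146 tested, 55 fell and 18 rose (median log2 fold change -0.12), or 88 and 9 with library totals. Called genes thus numbered 73 of 146, a share below the 53.5% of all tested genes. The lower share was 37.7% and the higher share 12.3%, against 27.4% and 26.2% of all tested genes. Among 51 replication factors 23 fell (45.1%) and 4 rose (7.84%), with a median of -0.18, or 35 and 4 with library totals. Their share called in either direction was 52.9%, near that of all tested genes. Cdt1, which loads the MCM ring on origins, fell from 4.98 ± 0.433 to 2.63 ± 0.297 CPM (log2 fold change -0.92, edgeR adjusted p = 8.4e-05), and Wdhd1 (-0.60) and the DNA ligase gene Lig1 (-0.38) also fell. Pold3, which encodes an accessory subunit of polymerase delta, rose from 117 ± 1.66 to 166 ± 5.10 CPM (log2 fold change 0.50, edgeR adjusted p = 6.19e-07), as did Rnaseh2a (0.41) and the chromatin assembly gene Chaf1a (0.34).

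Among 23 tested genes of G1 control 14 fell (60.9%) and 1 rose (4.35%), with a median of -0.35, or 18 and 1 with library totals. Over all tested genes 27.4% fell and 26.2% rose. E2f2, an activating E2F gene, went down from 7.47 ± 0.489 to 1.73 ± 0.570 CPM (mean ± SD; log2 fold change of -2.13, edgeR adjusted p = 1.39e-07), which is a larger fall than that of any of the 42 tested members. The CDK inhibitor gene Cdkn1b fell by 0.82 and E2f6 by 0.85 on the log2 scale, so that both activators and inhibitors of the cycle were among the genes that fell. Rbl2, a relative of the retinoblastoma gene, rose by 0.42.

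Of 53 genes of mitotic execution 9 were higher and 9 lower (median -0.03), a share of 34.0% called. This balance depended on the scaling, since library totals gave 3 higher and 23 lower. Foxm1 and Mybl2, which encode transcription factors of the G2 and M phase genes, rose by 0.37 and 0.50 and the kinesin gene Kif2c by 0.37, while Zwint (-0.54), Ckap2 (-0.43) and the checkpoint gene Mad2l1 (-0.48) fell. Of 19 genes of the meiotic cell cycle 9 fell (47.4%) and 4 rose (21.1%), with a median of -0.16, or 12 and 1 with library totals. Over all tested genes the shares were 27.4% and 26.2%. Cks1b (-0.93) and Cks2 (-0.35), whose products bind CDKs, fell with Stra8 (-0.72), a gene of meiotic entry. The cohesin genes Rec8 and Stag3 rose by 0.62 and 0.22, and Prr19 by 0.28.

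Set beside the lists of cell markers, Mcm2 to Mcm6, Ccnd1, Ccnd2 and Cdk4 had log2 fold changes between -0.92 and -0.60. Cenpa (-0.88) and Cdc25b (-0.66) lay in the same range, and Ccnb3 (-0.96) lay below it. The remaining lower members fell less, from -0.47 (Ccne2) to -0.19 (Bub1). The median was -0.69 for the spermatogonial, -0.62 for the Sertoli cell and -0.54 for the peritubular myoid cell markers. It was -0.9963 for the Leydig cell and -0.24 for the spermatocyte markers. The summed level of the spermatogonial list did not fall with its members, at 694 to 749 CPM in wild type and 730 to 762 CPM in knockout. Most of that sum was Dmrtb1, named here after its values were seen, which rose from 450 ± 17 to 572 ± 15 CPM, while Uchl1 and Dmrt1 each fell by 0.78 on the log2 scale. Gfra1 was the other spermatogonial marker that rose (log2 fold change 0.47, edgeR adjusted p = 0.00206). The Sertoli list summed to 1944 to 2184 CPM in wild type and 1291 to 1461 CPM in knockout, and the spermatocyte list to 5002 to 5154 and 5124 to 5524 CPM. Most of the spermatocyte sum was Ldhc, also named after its values were seen, which rose from 3216 ± 108 to 3744 ± 215 CPM. Of the 10 spermatocyte markers 5 fell and 2, with Ldhc among them, rose. Summed levels of round spermatid markers were 1020 to 1166 CPM in wild type and 1573 to 1695 CPM in knockout. The part of each cell type in the falls and rises of the cell cycle genes was not tested.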

How the data were processed

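RNA of adult testis was sequenced in 8 libraries, 4 per genotype. The authors deposited raw counts per gene; FastQC, Trimmomatic, STAR, featureCounts, DESeq2 and the build mm39 are named in the submitters' processing notes, and no source gives versions, annotation, strand setting or the treatment of multiply mapped reads. Genes were filtered with edgeR filterByExpr (minimum count 10, minimum total 15), scaled by TMM and tested over all genes with the quasi-likelihood test of edgeR 4.0.16 in R 4.3.3, with Benjamini-Hochberg adjustment at 0.05. CPM are TMM-scaled. Levels per kilobase used exon lengths of GENCODE vM21, another build than that of the counts, from which no coordinates are printed for genes. Paralog ratios (pseudocount 0.5) were compared by exact permutation over libraries. Equal replicate numbers are not stated to pair the libraries. Alternatives were other scalings, filters, DESeq2 1.42.0, a replicate block and each library left out. The members, gene lists and motifs were chosen with earlier results of these data known. Members given library by library were those with the smallest p of each role class, the germline genes and those against the majority of their class, and others of the same families and classes that were added after their values were seen; pathway lists gave up to 3 genes with the smallest p called in each direction, and marker lists up to 2 where set beside a member.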

Additional observations from a re-analysis of the deposited data

Results flagged for a closer look

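In 3 of 94 groups of 4 libraries, one library lay far from the other 3 in relation to the whole spread of the group, by Dixon's test at the 95% level; chance gives about 1 in 20. Mki67 stood at 41.3 CPM in knockout replicate 1, against 52.8 to 54.2 CPM in the other 3 knockout libraries. Cenpa stood at 2.20 CPM in the same library, against 4.18 to 4.31 CPM. Ccnd2 stood at 5.53 CPM in knockout replicate 4, against 3.97 to 4.12 CPM. All 3 genes kept their call as lower with any one library left out.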

How the results depend on the processing

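Of the 24 called members, 19 were called in the same direction in all 14 alternatives (17 lower, 2 higher). The exceptions were Ccnd3, Ccnb2, Plk1, Bub1 and Bub1b. Under scaling by library totals, 2 members were higher, and in the pathway lists 9 genes were higher and 88 lower. Leaving out each library in turn gave 4 to 6 members higher and 17 to 21 lower, and 15 to 19 pathway genes higher and 48 to 56 lower. With a replicate block, 7 members were higher and 20 lower, with Aurka (edgeR adjusted p = 0.0332) and Cenpe (0.0258) gained as higher and Cdc20 (0.0422) as lower; same-numbered libraries deviated together with correlations of 0.01 to 0.11, which does not show that the numbers pair them, and not every library correlated best with its own number. DESeq2 gave 5 members higher and 19 lower. The paralog ratios kept their direction in all alternatives; with a library left out the smallest exact permutation p is 0.0571, so that none could pass there. Genes of a few CPM, such as Tyms and Cdc25b, and Wee2 at its few counts, are limited by depth.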
